A study of Mus musculus with 10 samples.

Results

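The genes described here are 10 core parts and close outputs of the circadian clock, followed library by library in mouse liver. They were chosen by name: Arntl and Clock, Per1, Per2 and Per3, Cry1 and Cry2, Nr1d1 and Nr1d2, and Dbp. All 10 are among the 55385 gene IDs of the deposited tables, and all 10 are among the 12872 genes with enough counts to be tested. RNA came from frozen, homogenised whole liver, read as 5 libraries labelled Alk1-HEC-KO (genotype KO) and 5 labelled Control (genotype Ctrl). By the series title the targeted gene is Alk1, the former name of Acvrl1. The labels give no collection time, lighting, feeding state, age, sex, strain, treatment or promoter behind the deletion, do not spell out HEC, and do not say that each library is 1 animal. P-values therefore measure the spread between libraries, which may be technical.

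The clock is a feedback loop that runs in nearly every cell, the hepatocyte included. ARNTL (BMAL1) and CLOCK bind E-boxes as a pair and switch on the Per, Cry, Nr1d and Dbp genes. PER and CRY proteins then repress that pair, while NR1D1 and NR1D2 (REV-ERB alpha and beta) repress Arntl through RORE sites. In mouse liver Arntl peaks at about the opposite time of day to Dbp and the Nr1d genes, so the levels of these transcripts relative to each other follow the time of day at which a liver was taken. Nothing in the labels lets that time be checked.

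Stretches of letters that match such sites occur in the DNA around the starts of some of these genes. RefSeq start sites on GRCm38.p6 gave windows of 250 bases before to 50 after the start for 9 of the 10 genes. Each window was searched on both strands for the E-box CACGTG, the variant CACGTT, the D-box TTATGTAA or TTACGTAA (bound by DBP, TEF, HLF and NFIL3) and the RORE core TAGGTCA or TGGGTCA. Of 32851 mouse promoters of the same length, 7.15% held the E-box, 4.68% the variant, 1.06% the D-box and 6.45% the RORE core. The stretches below are shown because each holds one of these motifs, in capitals, 5′ to 3′ on the gene's own strand. AACGTG is the variant CACGTT read on the other strand. Ciart, a repressor of the ARNTL and CLOCK pair that is not among the 10 genes, is added for its 3 E-boxes, since its transcript is taken up again further on.
Per1, chr11:69098744-69098843, plus strand: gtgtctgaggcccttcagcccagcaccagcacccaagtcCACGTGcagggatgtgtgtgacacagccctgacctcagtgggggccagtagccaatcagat
Cry1, chr10:85185055-85185154, minus strand: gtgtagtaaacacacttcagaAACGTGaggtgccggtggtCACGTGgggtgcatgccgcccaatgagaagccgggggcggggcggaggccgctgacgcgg
Cry2, chr2:92434175-92434274, minus strand: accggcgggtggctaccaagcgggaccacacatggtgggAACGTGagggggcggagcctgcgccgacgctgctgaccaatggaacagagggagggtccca
Nr1d1, chr11:98775378-98775477, minus strand: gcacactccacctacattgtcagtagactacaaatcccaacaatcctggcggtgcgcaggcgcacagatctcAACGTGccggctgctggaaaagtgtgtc
Per3, chr4:151044796-151044895, minus strand: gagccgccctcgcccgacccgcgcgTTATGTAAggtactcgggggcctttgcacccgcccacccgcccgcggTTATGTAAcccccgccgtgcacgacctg
Arntl, chr7:113207528-113207557, plus strand: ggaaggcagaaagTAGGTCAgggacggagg
Ciart, chr3:95882259-95882358, minus strand: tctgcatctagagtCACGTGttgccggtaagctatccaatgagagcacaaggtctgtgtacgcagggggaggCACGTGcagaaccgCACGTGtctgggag

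The Per1 E-box began 166 bases before one of 2 listed starts, the one inside the gene's annotated span, and the E-box of Cry1 60 bases before it, with the variant 79 bases before it. The Cry2 variant began 166 bases and the Nr1d1 variant 28 bases before the start. Per3 had a pair of D-boxes, 205 and 158 bases before the start, and no E-box in its window. The RORE core of Arntl lay 30 bases after one of its 2 listed starts. None of these letters occurred in the windows of Clock, Dbp and Nr1d2, which says only that they are not in those 300 bases. A match is a stretch of letters and not a measured binding site.

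The libraries were even in depth, with 20.91 to 21.56 M estimated counts each, and they differed in other ways. Acvrl1 (chromosome 15, 101128522 to 101145336, plus strand, GRCm38), the gene named in the label, had 1.15, 1.39, 1.22, 1.92 and 1.12 TPM (abundance per transcript length, with an equal total in each library) in libraries labelled Alk1-HEC-KO 1 to 5, against 1.05, 0.296, 0.391, 0.661 and 0.951 TPM in control libraries 1 to 5. It was thus not lower in the libraries labelled as knockout (log2 fold change 0.99 ± 0.32 SE, edgeR quasi-likelihood test with Benjamini-Hochberg adjustment, adjusted p = 0.34; exact two-sided permutation p on TPM = 0.0079, the smallest that 5 against 5 can give). Every direction below is therefore that of the labels. Saa1, an acute-phase gene, spanned 61.5 to 13331 TPM in libraries labelled Alk1-HEC-KO and 49.7 to 6586 TPM in control libraries. Fos, an immediate early gene that responds to handling, was 1.09 to 3.03 TPM in libraries labelled Alk1-HEC-KO and 1.80 to 27.6 TPM in control libraries, with the 2 highest values in controls 1 and 2. The 8 hepatocyte markers together reached 46600 to 80900 TPM in libraries labelled Alk1-HEC-KO and 44900 to 75400 TPM in control libraries. The deposited file names fall into 3 runs of consecutive numbers, whose meaning the labels do not give: the first holds labelled knockout 1 with controls 1 and 2, the second labelled knockout 3 with controls 3, 4 and 5, and the third labelled knockouts 2, 4 and 5 with no control.

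None of the 10 clock genes passed the test between the groups. At an adjusted p under 0.05, 0 of 10 were called, in a comparison that called 0.357% of tested genes, and 0 of 10 had an unadjusted p under 0.05, against 8.44% of tested genes. Fold changes here and below are libraries labelled Alk1-HEC-KO over Control. The levels of the groups overlapped in all 10 genes, while they did not overlap in 1.68% of tested genes. The fold changes of 8 genes lay below 0 and of 2 above, with a median log2 fold change of -0.25, against 0.00 over all tested genes. Without labelled knockout library 5 the median of the 10 was -0.09. Neither DESeq2 nor limma on TPM called any of the 10. In whole tissue, fewer cells of a type and less RNA per cell cannot be told apart.

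**Figure D1:**
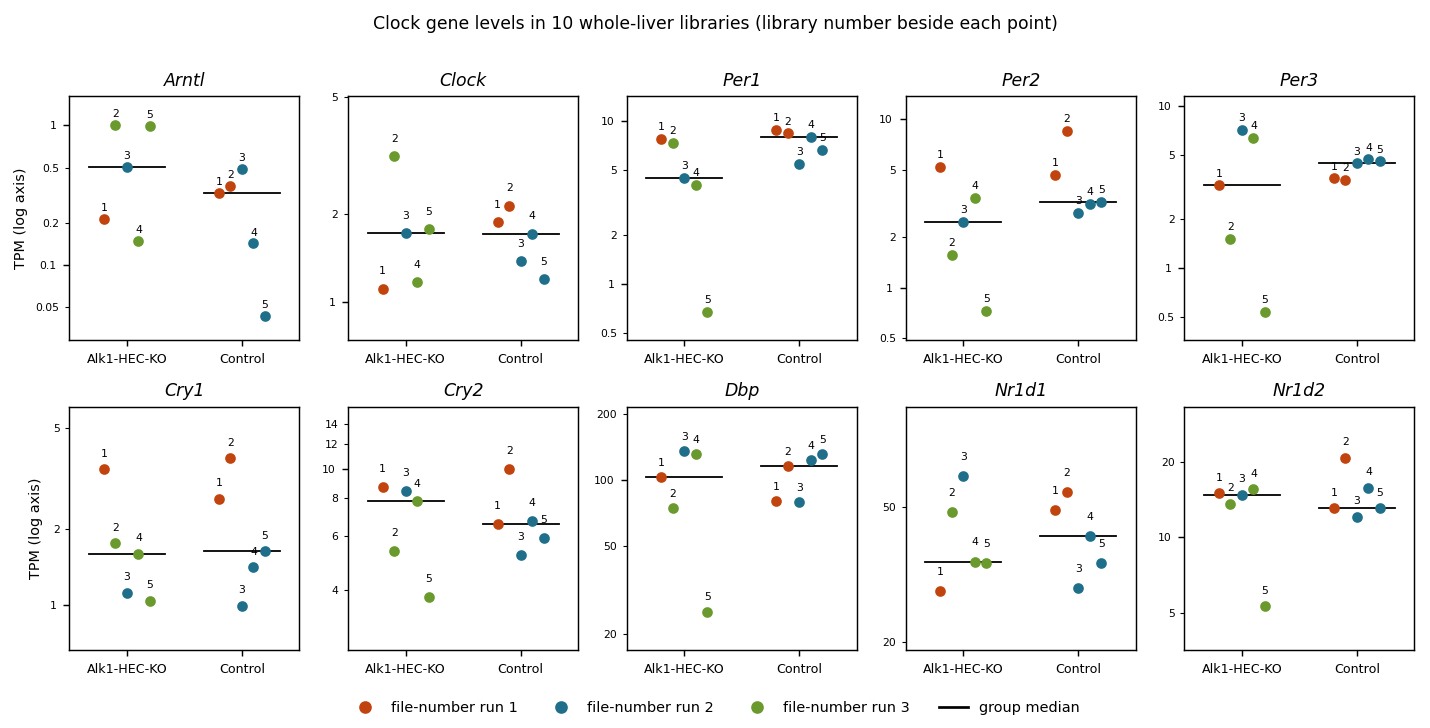
Levels of the 10 clock genes in TPM (log axes), with 1 point per library, its number beside it, the colour giving the run of file numbers and the line the group median. The groups overlap in every panel, and labelled knockout library 5 is the lowest point for Per1, Per2, Per3, Cry2, Dbp and Nr1d2.

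Among the activators, Arntl (ENSMUSG00000055116.8, chromosome 7, 113207465 to 113314126, plus strand), the partner without which the loop stops, was the scarcest of the 10. It had 0.214, 1.01, 0.503, 0.150 and 0.993 TPM in the libraries labelled Alk1-HEC-KO, 1 to 5, against 0.330, 0.369, 0.491, 0.143 and 0.0435 TPM in control libraries 1 to 5. Labelled knockouts 2 and 5 were the highest, control 5 the lowest, and the others interleaved. The means were 0.573 ± 0.411 TPM in libraries labelled Alk1-HEC-KO and 0.275 ± 0.180 TPM in control libraries (SD, n = 5 each), with a log2 fold change of 1.04 ± 0.66 SE (edgeR adjusted p = 0.71) and 0.57 without labelled knockout 5. These levels rest on few reads: 10, 44, 24, 8 and 54 counts in libraries labelled Alk1-HEC-KO and 16, 16, 25, 6 and 2 counts in control libraries. A count of 54 has a 95% exact Poisson interval of 40.6 to 70.5 and a count of 2 one of 0.242 to 7.22, which cover counting error only. The extremes of Arntl thus differed by more than counting error, while many of the libraries between them had overlapping intervals.

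Clock (ENSMUSG00000029238.11, chromosome 5, 76209868 to 76304792, minus strand), the other subunit of the activating pair, varied less. It had 1.11, 3.14, 1.72, 1.17 and 1.77 TPM in the libraries labelled Alk1-HEC-KO, 1 to 5, against 1.87, 2.13, 1.38, 1.71 and 1.20 TPM in control libraries 1 to 5. Both the highest and the lowest value were in labelled knockout libraries, and the controls lay within their range. The log2 fold change was 0.08 ± 0.23 SE (edgeR adjusted p = 0.94). The span of Clock shares 459 bases with Ube2n-ps1, a processed pseudogene on the same strand, which averaged 22.2 TPM. Npas2, which can stand in for Clock, was too scarce to test, with 1 to 7 counts in a library.

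Of the repressors, Per1 (ENSMUSG00000020893.17, chromosome 11, 69095217 to 69109960, plus strand), which also responds to glucocorticoids and fasting signals, had 7.81, 7.34, 4.50, 4.07 and 0.676 TPM in the libraries labelled Alk1-HEC-KO, 1 to 5, against 8.90, 8.44, 5.49, 8.04 and 6.67 TPM in control libraries 1 to 5. Labelled knockout 5 stood far below all others, and the remaining 4 labelled knockouts overlapped with the controls. The means were 4.88 ± 2.88 TPM in libraries labelled Alk1-HEC-KO and 7.51 ± 1.40 TPM in control libraries (SD, n = 5 each). The log2 fold change was -0.76 ± 0.43 SE (edgeR adjusted p = 0.69) and was -0.49 without labelled knockout 5.

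Per2 (ENSMUSG00000055866.9, chromosome 1, 91415982 to 91459324, minus strand), a repressor that also follows feeding and temperature, had 5.22, 1.56, 2.46, 3.41 and 0.732 TPM in the libraries labelled Alk1-HEC-KO, 1 to 5, against 4.65, 8.53, 2.79, 3.14 and 3.21 TPM in control libraries 1 to 5. Control 2 was the highest and labelled knockout 5 the lowest, with the others interleaved. Per2 had the smallest unadjusted p of the 10 genes, 0.053, at a log2 fold change of -0.85 ± 0.39 SE (edgeR adjusted p = 0.59). The 3 highest Per2 levels were the 3 libraries of the first run of file numbers.

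Per3 (ENSMUSG00000028957.12, chromosome 4, 151003652 to 151044665, minus strand), the period gene whose loss disturbs rhythms least in mice, had 3.24, 1.52, 7.14, 6.35 and 0.543 TPM in the libraries labelled Alk1-HEC-KO, 1 to 5, against 3.58, 3.52, 4.43, 4.69 and 4.56 TPM in control libraries 1 to 5. The controls were tightly packed, and labelled knockouts lay on both sides of them: 3 and 4 above all controls, and 1, 2 and 5 below all controls. The log2 fold change was accordingly small, -0.25 ± 0.51 SE (edgeR adjusted p = 0.92), and was 0.01 without labelled knockout 5. Per3 lies within Camta1 on the same strand, which averaged 7.03 TPM.

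Cry1 (ENSMUSG00000020038.10, chromosome 10, 85131700 to 85185064, minus strand), the late repressor of the loop, had 3.43, 1.75, 1.12, 1.59 and 1.04 TPM in the libraries labelled Alk1-HEC-KO, 1 to 5, against 2.62, 3.78, 0.995, 1.41 and 1.63 TPM in control libraries 1 to 5. Labelled knockout 1 and controls 1 and 2 were high, and the other 7 libraries lay at 1.75 TPM or lower. The log2 fold change between the labelled groups was -0.26 ± 0.36 SE (edgeR adjusted p = 0.88). Cry2 (ENSMUSG00000068742.11, chromosome 2, 92403646 to 92434043, minus strand), its more evenly expressed relative, had 8.70, 5.38, 8.47, 7.81 and 3.80 TPM in the libraries labelled Alk1-HEC-KO, 1 to 5, against 6.60, 9.98, 5.22, 6.75 and 5.93 TPM in control libraries 1 to 5. The controls spread across much of the labelled knockouts' range, control 2 was highest, and the log2 fold change was -0.09 ± 0.19 SE (edgeR adjusted p = 0.92).

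The nuclear receptors of the second loop were more abundant. Nr1d1 (ENSMUSG00000020889.11, chromosome 11, 98767932 to 98775333, minus strand), which binds haem and represses Arntl and lipid genes, had 28.4, 48.4, 61.9, 34.6 and 34.3 TPM in the libraries labelled Alk1-HEC-KO, 1 to 5, against 48.9, 55.5, 28.9, 41.2 and 34.2 TPM in control libraries 1 to 5. Labelled knockout 5, low in most of the other genes, was in the middle here. The log2 fold change was -0.08 ± 0.18 SE (edgeR adjusted p = 0.92). Nr1d2 (ENSMUSG00000021775.11, chromosome 14, 18204054 to 18239127, minus strand), its close relative, had 15.0, 13.6, 14.8, 15.6 and 5.30 TPM in the libraries labelled Alk1-HEC-KO, 1 to 5, against 13.1, 20.8, 12.1, 15.8 and 13.1 TPM in control libraries 1 to 5. Labelled knockout 5 alone was low and control 2 alone was high, with the other 8 libraries between 12.1 and 15.8 TPM. The log2 fold change was -0.33 ± 0.20 SE (edgeR adjusted p = 0.69) and was -0.18 without labelled knockout 5.

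Dbp (ENSMUSG00000059824.12, chromosome 7, 45705088 to 45710203, plus strand), a D-box activator that carries the rhythm to liver enzymes, was the most abundant of the 10 per length. It had 103, 74.7, 135, 131 and 25.3 TPM in the libraries labelled Alk1-HEC-KO, 1 to 5, against 80.5, 116, 79.2, 123 and 132 TPM in control libraries 1 to 5. Labelled knockout 5 was the lowest, and the other libraries spread across less than a 2-fold range in both groups. The means were 93.9 ± 45.4 TPM in libraries labelled Alk1-HEC-KO and 106 ± 24.7 TPM in control libraries (SD, n = 5 each), with a log2 fold change of -0.29 ± 0.32 SE (edgeR adjusted p = 0.84) and -0.07 without labelled knockout 5. The sources used here do not state whether counting used strand, so reads of Dbp and Sphk2 (18.4 TPM, 737 bases shared, opposite strands) and of Nr1d1 and Thra (5.25 TPM, 1075 bases shared, opposite strands) may not be fully told apart.

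**Figure D2:**
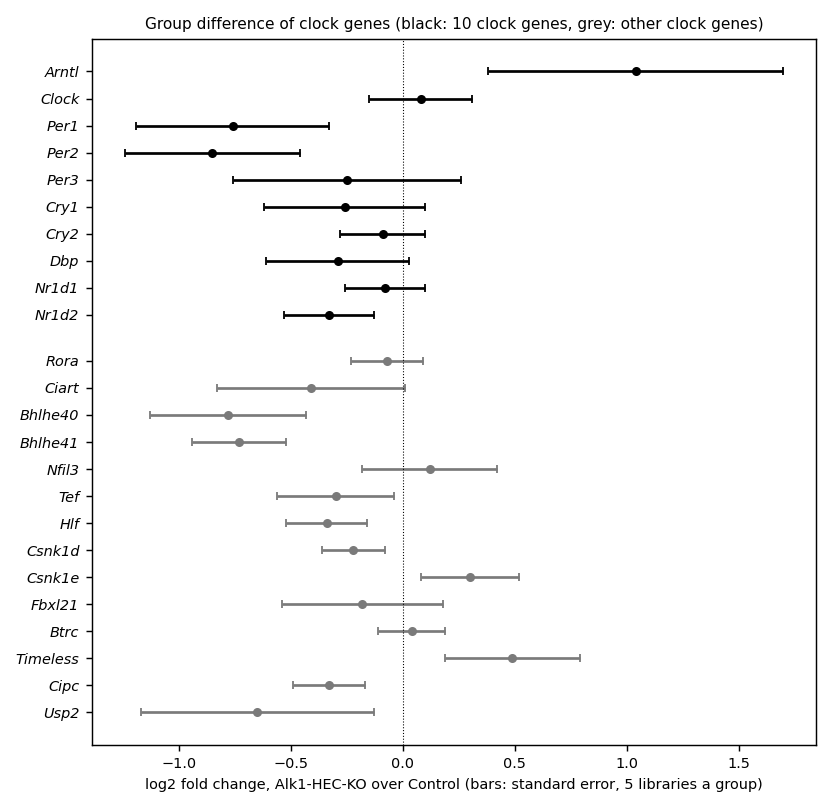
Log2 fold change of the 10 clock genes (black) and of 14 further genes of the loop (grey), libraries labelled Alk1-HEC-KO over Control, from the edgeR fit over all tested genes, with bars of 1 SE and 5 libraries a group. None passed an adjusted p of 0.05, and among the 10 the values range from -0.85 for Per2 to 1.04 for Arntl.

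The order of the mean TPM over the 10 libraries, which is a level per length, ran from Dbp through Nr1d1, Nr1d2, Cry2, Per1, Per3, Per2, Cry1 and Clock to Arntl. Nr1d1 lay above Nr1d2 and Clock above Arntl with no overlap over the 10 libraries. Nr1d2 exceeded Cry2 in 10 of 10 libraries, though their ranges overlapped. Dbp exceeded Nr1d1 in 9 of 10, all but labelled knockout 5, where Nr1d1 (34.3 TPM) exceeded Dbp (25.3 TPM). Per1 exceeded Per3, and Per2 exceeded Cry1, in 8 of 10 libraries. The neighbours that did not separate were Cry2 with Per1, Per3 with Per2 and Cry1 with Clock, each with the first gene higher in 5 of 10.

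The libraries labelled Alk1-HEC-KO lay farther from each other in the clock genes than the controls did. The SD of log2 CPM (counts scaled to the TMM-adjusted library total) was higher in libraries labelled Alk1-HEC-KO than in Control for 10 of 10 clock genes, against 63.2% of tested genes, and at least 2 times higher for 5 of 10, against 18.6% of tested genes. Per3 had an SD of 1.36 in libraries labelled Alk1-HEC-KO and 0.30 in control libraries, and Per1 had 1.24 in libraries labelled Alk1-HEC-KO and 0.17 in control libraries. In TPM, Per3 spanned 13.2-fold in libraries labelled Alk1-HEC-KO and 1.33-fold in control libraries. The difference was smaller without 1 library: without labelled knockout 5 the SD was higher in 9 of 10 clock genes (56.7% of tested genes) and at least 2 times higher in 3 of 10 (17.2% of tested genes), and the SD of Per1 was then 0.47. The median SD of the 10 genes was 0.74 in libraries labelled Alk1-HEC-KO, 0.51 in the same without library 5, and 0.25 in control libraries, where all tested genes had 0.32, 0.30 and 0.26. Arntl and Cry1 had nearly the same SD in both groups, 1.16 in each for Arntl. These SDs are a description, since no test of spread was made. Labelled knockouts 2, 4 and 5 make up the third run of file numbers, which holds no control. Spread by label and spread by run therefore cannot be told apart.

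Labelled knockout library 5 differed from the other 9 libraries across the loop. It was the lowest of the 10 libraries in log2 CPM for 5 of 10 clock genes (Per1, Per2, Per3, Dbp and Nr1d2), as it was for 19.6% of all tested genes, and the highest for 1 (Arntl), as it was for 16.1%. Among genes of the loop outside the 10 it was lowest in 7 of 14 tested, and among genes under clock control in liver in 7 of 11. Tef, a D-box activator, had 12.4 TPM there and Usp2, a clock-regulated deubiquitinase, 3.84 TPM, against at least 28.9 and 12.0 TPM in the other libraries. Wee1, a cell-cycle kinase with E-boxes in mouse, had 0.315 TPM there and 2.70 to 6.77 TPM in the others. The same library had the highest Saa1, 13331 TPM, the lowest Alb, 20700 TPM, and a TMM scaling factor of 0.892 (0.869 to 1.107 over all libraries). The 10 Kupffer and leukocyte markers summed to 151 TPM there, against 98.9 to 222 TPM over all libraries labelled Alk1-HEC-KO. High Saa1 also occurred with Dbp in the upper range, in labelled knockout 4 (Saa1 6733 TPM, Dbp 131 TPM) and control 4 (Saa1 6586 TPM, Dbp 123 TPM). Alb was nearly as low in control 3 (21100 TPM), where Dbp was 79.2 TPM, the lowest of the controls. The part of any of these in the low clock values was not tested.

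Labelled knockout library 2 shared some of this pattern. Its Arntl and Clock were the highest in TPM of the 10 libraries and its Per3 and Per2 the second lowest, while Per1 (7.34 TPM) was among the middle values and Nr1d1 (48.4 TPM) among the higher ones. Igfbp1, a fasting-induced gene of hepatocytes, had 597 TPM in that library and at most 176 TPM in the others. Pck1, the gluconeogenic enzyme, had 1970 TPM there against at most 1100 TPM. Of the 10 fasting and feeding genes read further on, Angptl4 (104 TPM) was also highest there in TPM. The rest of that list was highest elsewhere, such as G6pc (322 TPM there, 346 TPM in control 2) and Pdk4 (0.695 TPM there, 2.39 TPM in control 2). Control library 5 was at the other end, with the lowest Arntl and a Dbp of 132 TPM.

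The ratio of Dbp to Arntl puts the opposed arms into 1 number. In TPM it was 482, 74.2, 268, 873 and 25.5 in libraries labelled Alk1-HEC-KO 1 to 5, against 244, 315, 161, 866 and 3030 in control libraries 1 to 5. The 2 lowest ratios were labelled knockouts 5 and 2 and the highest was control 5, where only 2 Arntl counts stand below the line. The other 7 libraries of both groups were mixed together between 161 and 873.

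Some pairs of clock genes varied together across the 10 libraries, and most did not pass the test. Of 45 pairs, 9 had a Pearson r of log2 CPM with an adjusted permutation p under 0.05 (100000 resamples, two-sided, Benjamini-Hochberg over the 45), and the same 9 passed after group means were removed. By Spearman rho 0 of 45 passed, with 9 at an unadjusted p under 0.05 and a lowest adjusted p of 0.13. Arntl and Clock went together (r = 0.81, permutation p = 0.0052, adjusted p = 0.039; rho = 0.82, p = 0.0058, adjusted p = 0.13), with r = 0.78 without the 2 libraries farthest from the median of Arntl. Arntl ran against Dbp (r = -0.78, permutation p = 0.0037, adjusted p = 0.033; rho = -0.73, p = 0.019, adjusted p = 0.17), with r = -0.64 without the 2 farthest. In mouse liver the peaks of Arntl and Clock are known to lie close together and that of Dbp far from them.

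Clock also ran against Dbp (r = -0.73, permutation p = 0.0095, adjusted p = 0.048; rho = -0.70, p = 0.029, adjusted p = 0.17), with r = -0.85 without the 2 farthest. That relation depended on the scale, with r = -0.28 in log2 TPM, while Arntl with Clock had 0.69 and Arntl with Dbp -0.70 there. Per3 followed Dbp most closely of all pairs (r = 0.95, permutation p = 0.00041, adjusted p = 0.0099; rho = 0.84, p = 0.0036, adjusted p = 0.13), with r = 0.68 without the 2 farthest and 0.88 without labelled knockout 5. Per3 is also the gene whose window above holds the pair of D-boxes, the site that DBP binds. Whether DBP acted on it was not measured.

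Per2 went with Nr1d2 (r = 0.89, permutation p = 0.00044, adjusted p = 0.0099; rho = 0.76, p = 0.015, adjusted p = 0.17) and with Cry2 (r = 0.85, permutation p = 0.0026, adjusted p = 0.029; rho = 0.70, p = 0.03, adjusted p = 0.17). Without the 2 farthest libraries r was 0.70 with Nr1d2 and 0.52 with Cry2. Cry2 went with Nr1d2 (r = 0.82, permutation p = 0.002, adjusted p = 0.029; rho = 0.70, p = 0.03, adjusted p = 0.17), with 0.54 without the 2 farthest. The libraries left out were labelled knockouts 2 and 5, while control 2, the highest library of each of these 3 genes, stayed in. What r would be without control 2 was not computed. Nr1d2 also went with Dbp (below), so these 3 genes are not shown to be a separate set.

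A further pair of relations rested on labelled knockouts 2 and 5. Per3 with Nr1d2 (r = 0.82, permutation p = 0.0094, adjusted p = 0.048; rho = 0.35, p = 0.33, adjusted p = 0.56) had r = -0.37 without those 2 libraries. Dbp with Nr1d2 (r = 0.88, permutation p = 0.0072, adjusted p = 0.046; rho = 0.49, p = 0.15, adjusted p = 0.42) had r = -0.08 without them. Nr1d1 had no r beyond 0.54 in size with any of the other 9 genes, and its strongest, with Clock, did not pass (permutation p = 0.11, adjusted p = 0.19; rho = 0.64, p = 0.053, adjusted p = 0.24). With Arntl, the gene it represses, Nr1d1 had r = 0.39 (permutation p = 0.26, adjusted p = 0.35; rho = 0.49, p = 0.16, adjusted p = 0.42). Correlations within single runs were not computed, since a run holds 3 or 4 libraries.

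**Figure D3:**
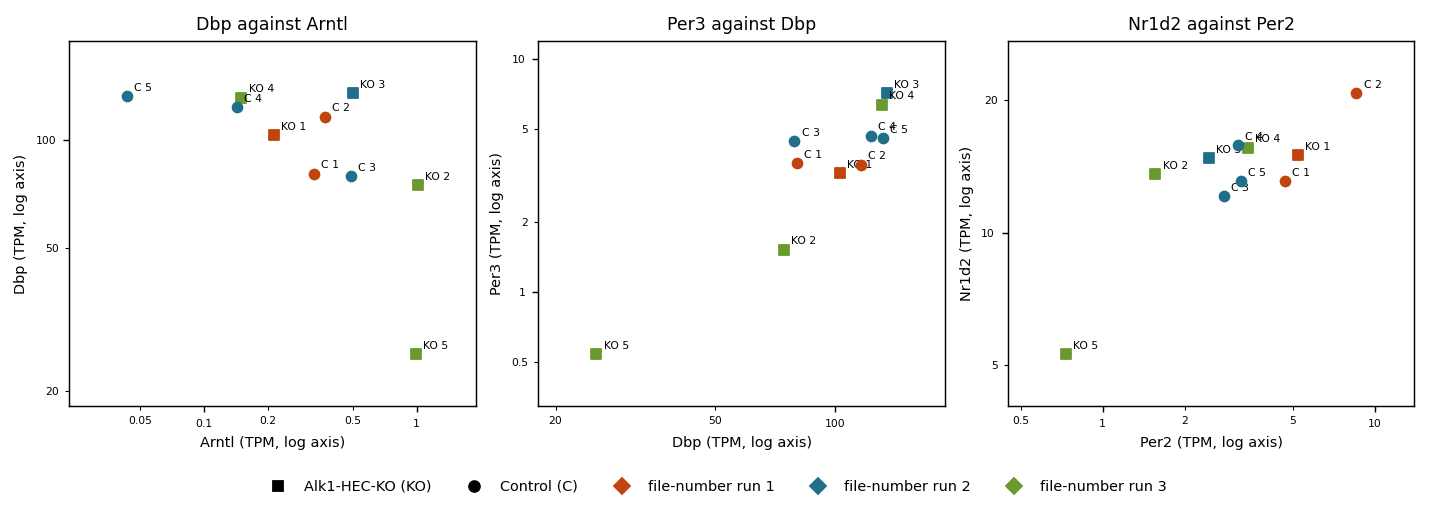
Dbp against Arntl, Per3 against Dbp and Nr1d2 against Per2 in TPM (log axes), with 1 point per library, squares for libraries labelled Alk1-HEC-KO (KO) and circles for Control (C), coloured by run of file numbers. Dbp tends to be lower where Arntl is higher, though labelled knockout 3 has the highest Dbp (135 TPM) at an Arntl of 0.503 TPM. Per3 tends to be higher where Dbp is, and labelled knockout 5 is the lowest point on the vertical axis of all 3 panels.

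**Figure D4:**
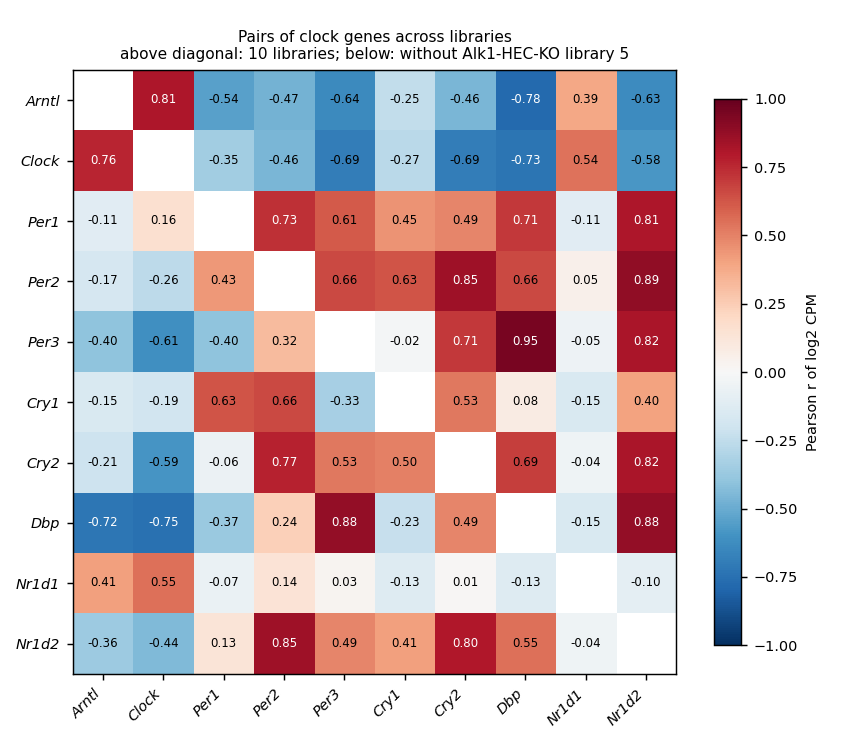
Pearson r of log2 CPM over 10 libraries for the 45 pairs of clock genes above the diagonal, and without labelled knockout library 5 below it. Above the diagonal Arntl and Clock are opposed to Dbp (r = -0.78 and -0.73; in log2 TPM -0.70 and -0.28), and Nr1d1 has no r beyond 0.54 in size.

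The genes most like Arntl and Dbp among tested genes averaging 1 TPM or more (9730 genes, deviations of log2 CPM from group means in 10 libraries) are given as a description. The 10 clock genes were left out of this ranking, as were pseudogenes, genes named Gm or Rik and IDs without a symbol. On the same scale, Per3 had r = 0.95 with Dbp, and Clock had r = 0.88 with Arntl. Highest with Dbp were Upp2 (r = 0.952), Hsd3b3 (0.949), Smad5 (0.946), Tnks1bp1 (0.946) and Ngef (0.945). Upp2, a uridine phosphorylase, is also on the list of clock-controlled liver genes, whose r with Dbp ran from -0.90 (Insig2) to 0.95 (Upp2). Lowest with Dbp were Ufm1 (-0.936), Gmppb (-0.935), Mif4gd (-0.933), AU022252 (-0.918) and Slc39a8 (-0.91). Highest with Arntl were Itfg2 (0.891), mt-Atp8 (0.891), Gldc (0.878), Slc30a10 (0.877) and Asb13 (0.877), and lowest were Abhd17b (-0.952), Mrm3 (-0.933), Irf2bp1 (-0.916), Asgr2 (-0.91) and Wdsub1 (-0.906). Without removing group means, 2 of the 5 highest with Dbp stayed on the list, Hsd3b3 and Ngef but not Upp2, and 3 of the 5 lowest. With Arntl, 1 of the 5 highest and 4 of the 5 lowest stayed. Among genes of the loop, Tef had r = 0.88 with Dbp and -0.69 with Arntl, and Nfil3, the D-box repressor, -0.73 with Dbp and 0.67 with Arntl. Hlf, another D-box activator, had 0.34 with Dbp and -0.01 with Arntl.

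The runs of file numbers lined up with some repressors. This comparison was added after the data were seen, and what a run is cannot be read from the labels. In the edgeR fit of group and run, Cry1 was higher in the first run than in the second (log2 fold change 1.30 ± 0.21 SE, quasi-likelihood with Benjamini-Hochberg adjustment, adjusted p = 0.037), the only one of the 10 genes called. That fit called 0.241% of tested genes, 0.179% higher and 0.0622% lower in the first run. Its 3 libraries of the first run had 2.62 to 3.78 TPM and the other 7 had 0.995 to 1.75 TPM. Cry1 and Per1 lay above the other 7 libraries in log2 CPM in all 3 of the first run, and 4.55% of tested genes did so. In TPM, Per1 overlapped (7.81 to 8.90 in the first run and 0.676 to 8.04 in the others), while Per2 did not (4.65 to 8.53 in the first run and 0.732 to 3.41 in the others). The run difference of Per2 was not called (log2 fold change 0.86 ± 0.38 SE, edgeR adjusted p = 0.41).

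Outside the 10 genes, Ciart had 18.1 to 28.2 TPM in the first run and 2.89 to 13.1 TPM in the others. Its difference between the first and second run was not called (log2 fold change 0.72 ± 0.29 SE, edgeR adjusted p = 0.35). Of 14 tested further genes of the loop, 3 had the first run apart from the other 7 libraries in log2 CPM, against 9.22% of tested genes. Ciart and Cipc lay above, and Btrc below. Of 7 glucocorticoid-induced genes, 5 had the first run apart from the other 7 libraries in log2 CPM, against 9.22% of tested genes: Tsc22d3, Tat and Zbtb16 above, and Mt1 and Mt2 below. Zbtb16, a zinc-finger repressor induced by glucocorticoids, was called (edgeR adjusted p = 0.0056), with 3.10 to 6.66 TPM in the first run and 0.393 to 2.44 TPM in the others. The ratio of Per3 to Per2 was 0.413 to 0.77 in the first run, 1.42 to 2.90 in the second and 0.742 to 1.86 in the third. The first run thus had less Per3 for its Per2 than every library of the second. The first and the second run hold 1 labelled knockout each and the third holds no control, so a single run allows no test of the groups. Fitted over all runs, with the run as a covariate, the log2 fold change of Arntl was 0.25 and that of Clock -0.31, and neither was called.

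**Figure D5:**
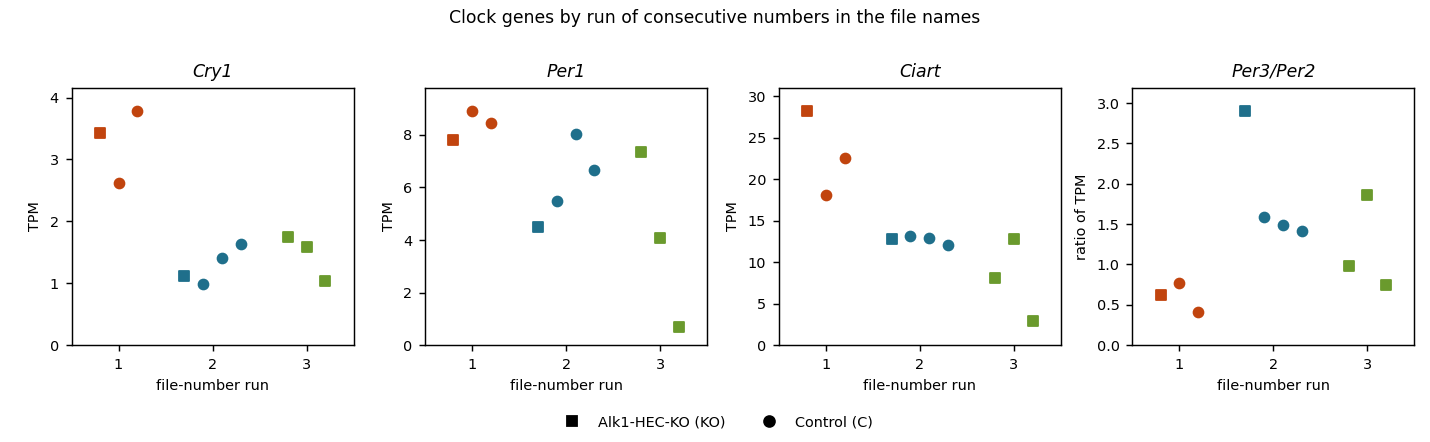
TPM of Cry1, Per1 and Ciart and the ratio of Per3 to Per2 by run of file numbers, with 1 point per library, squares for libraries labelled Alk1-HEC-KO and circles for Control. The first run holds the 3 highest values of Cry1 (2.62 to 3.78 TPM), above all 7 other libraries (0.995 to 1.75 TPM).

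Genes of the wider clock did not pass the group test either. Of 16 further genes of the loop, 14 were tested and 0 were called, in a comparison that called 0.357% of tested genes. Of the 14, 4 had a fold change above 0 and 10 below, with a median log2 fold change of -0.26. Npas2 was too scarce and Rorb was listed at 0 in every library. The repressors Bhlhe41 (-0.73 ± 0.21 SE, edgeR adjusted p = 0.27) and Bhlhe40 (-0.78 ± 0.35 SE, edgeR adjusted p = 0.58) were the 2 of 14 with an unadjusted p under 0.05, against 8.44% of tested genes. The Arntl activator Rora (-0.07 ± 0.16 SE) stood near 0. The kinase Csnk1d, which marks PER for turnover, had -0.22 ± 0.14 SE, close to the median of the list. Larger values with larger errors were those of Ciart (-0.41 ± 0.42 SE), Usp2 (-0.65 ± 0.52 SE) and Timeless (0.49 ± 0.30 SE). The remaining genes were Nfil3 (0.12 ± 0.30 SE), Tef (-0.30 ± 0.26 SE), Hlf (-0.34 ± 0.18 SE), Cipc (-0.33 ± 0.16 SE), Csnk1e (0.30 ± 0.22 SE), Fbxl21 (-0.18 ± 0.36 SE) and Btrc (0.04 ± 0.15 SE).

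Of genes under clock control in liver, 0 of 11 tested were called, against 0.357% of tested genes. Their fold changes were above 0 in 1 and below in 10, with a median log2 fold change of -0.41. Noct, the rhythmic phosphatase nocturnin, was among the 3 of 11 with an unadjusted p under 0.05, against 8.44% of tested genes. It had 22.2, 8.73, 10.8, 7.09 and 1.46 TPM in the libraries labelled Alk1-HEC-KO, 1 to 5, against 22.5, 33.6, 20.2, 25.9 and 16.7 TPM in control libraries 1 to 5. Only labelled knockout 1 lay within the controls' range, and the log2 fold change was -1.20 ± 0.39 SE (edgeR adjusted p = 0.40). Without labelled knockout 1, that 1 overlapping library, Noct was called lower, in a fit that called 83 genes against 46 with all libraries. Noct was chosen for the text with its values known. Alas1, the first enzyme of haem synthesis and the most abundant of the list, averaged 276 ± 187 TPM in libraries labelled Alk1-HEC-KO and 550 ± 283 TPM in control libraries (SD, n = 5 each; log2 fold change -1.18 ± 0.53 SE, edgeR adjusted p = 0.59). Upp2 averaged 394 ± 204 TPM in libraries labelled Alk1-HEC-KO and 357 ± 59.5 TPM in control libraries (SD, n = 5 each; log2 fold change 0.03).

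Other gene groups that could move with clock transcripts were read from the same fit, which called 0.357% of tested genes. Of 11 tested immediate early genes 0 were called, 10 with a fold change below 0 and a median of -0.96 on the log2 scale, and 6 of 11 had an unadjusted p under 0.05 (8.44% of tested genes). DESeq2 called Fos, lower in libraries labelled Alk1-HEC-KO. The median was -0.53 without control 1 and -0.06 without controls 1 and 2, which had the highest Fos. The glucocorticoid-induced genes (0 of 7 called, median -0.33) and the fasting and feeding genes (0 of 10 called, median -0.39) did not pass either, with 0 in each list at an unadjusted p under 0.05 and none called by DESeq2. Without controls 1 and 2 the glucocorticoid median turned to 0.71 and the fasting and feeding median to 0.04, and without control 2 alone the fasting and feeding median was -0.01. Without the 3 high-Saa1 libraries the glucocorticoid median was 0.07. Of 10 endothelial markers, 2 were called, both higher in libraries labelled Alk1-HEC-KO. Fold changes lay above 0 in 8 of the 10, and 4 had an unadjusted p under 0.05. DESeq2 called these 2 and Pecam1. Ly6c1 averaged 15.3 ± 5.51 TPM in libraries labelled Alk1-HEC-KO and 0.598 ± 0.267 TPM in control libraries (SD, n = 5 each; edgeR adjusted p = 2.7e-05). Emcn averaged 5.03 ± 1.27 TPM in libraries labelled Alk1-HEC-KO and 1.24 ± 0.694 TPM in control libraries (SD, n = 5 each; edgeR adjusted p = 0.0045). With the run as a covariate, and without the 3 high-Saa1 libraries, Ly6c1 alone of the 10 was called. The 8 tested Kupffer and leukocyte markers had fold changes above 0 with a median of 0.89 and 0 called, and 7 of 8 had an unadjusted p under 0.05. DESeq2 called 2 of them, Cd5l and Vsig4, and so did edgeR without labelled knockout 2, while edgeR with no count filter called Vsig4. The TPM of the 10 listed markers summed to 98.9 to 222 in libraries labelled Alk1-HEC-KO and 70.4 to 103 in control libraries. Hepatocyte markers had a median of 0.07 with 0 of 8 called.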

How the data were processed

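RNA of 10 whole-liver libraries was sequenced on the BGISeq-500, per the labels. Tools named in the submitters' processing notes were kallisto 0.4.6 and Trim Galore 0.6.4, with GRCm38.p6 as the build. Per-library tables of estimated counts and of TPM were deposited by the authors. How transcripts were summed to genes is not given in the sources used here. TPM gave levels. Estimated counts, 38.3% of the nonzero ones whole within 1e-06, were rounded, which changed no total by more than 0.00078%. Symbols and coordinates came from GENCODE M21, and 241 of 55385 IDs had no symbol (at most 0.013% of counts). Totals were 20.91 to 21.56 M.

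Genes passing filterByExpr (12872) were scaled by TMM (0.869 to 1.107) and tested in R 4.3.3 with edgeR 4.0.16 (robust quasi-likelihood test, group as the only term), with Benjamini-Hochberg adjustment over all of them and a threshold of 0.05. The SE was derived from the F statistic. The fits were tested on simulated data. Exact permutation tests used log2(TPM + 0.1). Alternatives were DESeq2 1.42.0, limma 3.58.1 on log2(TPM + 1) and log2(TPM + 0.1), other scalings, no filter, each library left out, the replicate block, the file-number run, and leaving out libraries with high Saa1 or Fos.

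The 10 genes and all lists were chosen with earlier results of these data known. The text names Acvrl1, the 10 genes, the other clock genes, called or most abundant members of the remaining lists, and the 5 genes most and least like Arntl and Dbp. Noct, Wee1, Saa1, Fos, Igfbp1, Angptl4, G6pc, Pdk4, Insig2, Cd5l, Vsig4 and the glucocorticoid genes were added with their values known. Some genes of the loop are not reported here, and the counts over the list leave them out.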

Additional observations from a re-analysis of the deposited data

Results flagged for a closer look

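In groups of 5 libraries, a value was singled out when its gap to the nearest other library exceeded 0.71 of the group's range (Dixon's 95% value). Gaps and ranges were taken in log2(TPM + 0.1), while the values below are in TPM. Over 26 genes and 52 groups this gave 5 values, and chance alone gives about 1 in 20 groups. Rorb, at 0 in every library, has no range and could give none. In labelled knockout library 5, Per1 had 0.676 TPM, Nr1d2 5.30 TPM, Bhlhe40 (a repressor of the loop) 11.9 TPM and Csnk1d (the kinase of PER) 7.08 TPM, each far below the other 4 libraries labelled Alk1-HEC-KO. In control library 2, Hlf, a D-box activator, had 18.4 TPM, far above the other 4 controls. The 4 low values share 1 library and are therefore not independent of each other.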

How the results depend on the processing

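No setting run called any of the 10 clock genes. Over all genes, 46 were called (24 higher, 22 lower). Counts moved by over 1.5 times to 119 (68 higher, 51 lower) with no count filter, 152 (82, 70) with DESeq2, 5 (2, 3) with the file-number run as a covariate, 18 (8, 10) without the run that holds no control, 17 (7, 10) without the 2 high-Fos libraries and 30 (11 higher) without the 3 high-Saa1 libraries; limma on log2(TPM + 1) gave 13 lower. Leaving out 1 library gave 33 to 83 called (83 without labelled knockout 1), 18 to 40 higher and 15 to 43 lower. With the replicate number as a block, 40 genes were called. Deviations of same-numbered libraries correlated at -0.10 to 0.28, and 2 of 5 labelled knockouts correlated best with their own number. With so few libraries this cannot tell whether same-numbered libraries were paired, and the labels name no pairing. Signs reversed as follows in log2 fold change. With the run as a covariate: Clock -0.31, Per3 0.21, Cry2 0.15, Dbp 0.04, Rora 0.05, Ciart 0.09, Nfil3 -0.04, Tef 0.06, Csnk1e -0.03. Without the run that holds no control: Clock -0.31, Per3 0.19, Cry1 0.06, Cry2 0.17, Dbp 0.00, Rora 0.07, Ciart 0.24, Nfil3 -0.07, Tef 0.08, Csnk1e -0.03. Without the high-Fos libraries: Cry1 0.29, Cry2 0.03, Nr1d1 0.11, Rora 0.10, Btrc -0.10. Without the 2 libraries lowest in Dbp, chosen after seeing the data: Arntl -0.02, Clock -0.36, Per3 0.30, Cry2 0.16, Dbp 0.10, Rora 0.03, Ciart 0.04, Nfil3 -0.26, Tef 0.07. Without high-Saa1 libraries, Fbxl21 0.06; by totals alone, Rora 0.02; by limma on log2(TPM + 1), Rora 0.02, Fbxl21 0.00, and on log2(TPM + 0.1), Rora 0.03. Leaving out 1 library gave Clock -0.08 to 0.21, Per3 -0.57 to 0.01, Cry1 -0.65 to 0.00, Cry2 -0.20 to 0.02, Nr1d1 -0.22 to 0.02, Btrc -0.02 to 0.15, Fbxl21 -0.48 to 0.04, Nfil3 -0.01 to 0.33 and Rora -0.15 to 0.07. The causes were not tested. Arntl and Npas2 are limited by counts, and 5 libraries a group limit every fold change to the SE given beside it.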
